A study of Caenorhabditis elegans with 2 samples.

Results

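The 8 genes K12H4.5, atx-2, chaf-2, idhg-1, snx-13, T13C5.6, M01F1.9 and vps-51 lie downstream of the strongest promoter peaks in a chromatin immunoprecipitation and sequencing (ChIP-seq) map of the Caenorhabditis elegans transcription factor HLH-15. They were chosen by peak signal: each has, in the 1 kb upstream of its start, a summit among the 25 peaks with the highest signal value of the authors' IDR list, the peaks kept for a reproducible rank between replicates by the irreproducible discovery rate, and away from tRNA and snoRNA genes. They are 8 of 19973 protein-coding genes of the nuclear chromosomes. Of the 407 IDR peaks, 180 have their nearest protein-coding start within 1 kb downstream of the summit and are over 100 bp from any tRNA or snoRNA gene. Of those 180 promoter peaks, 9 are among the 25 strongest. The ninth, at rank 5, lies upstream of ears-2, which is not among the listed genes. The other 172 promoter peaks serve below as the background.

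The data came from 1 group of 2 biological replicates, late embryos of strain OP566, whose genotype is unc-119(tm4063) III; wgIs566. The animals were hermaphrodites taken as whole organisms 3 hours after synchronization by egg bleaching. They stably carry a transgene that makes HLH-15 with GFP and FLAG at its C terminus, so the map is that of a tagged extra copy across all embryonic cell types, and which cells gave the signal cannot be told from it. The description names an antibody against GFP, while the antibody label gives hlh-15, and it is not known which was meant. There is no second strain, stage or untagged group among the samples, so no contrast between conditions was made. Read depth is unknown.

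HLH-15 belongs to the basic helix-loop-helix (bHLH) proteins and is of the same family as the vertebrate NHLH factors of developing neurons. Proteins of this class bind DNA as dimers at E-boxes, sites of the form CANNTG, and worm bHLH factors often pair with the E protein HLH-2. In ChIP-seq, fragments bound to the protein pile up at its sites, and the summit of a peak is the base with the highest pile. In compact worm genomes a promoter often serves a pair of genes that point away from each other, so a peak upstream of one gene can also lie upstream of its neighbour.

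The stretches from 100 bp before to 100 bp after the IDR summit are shown for 6 of the listed genes, because the comparison of motifs, repeats and non-coding RNA rests on them. They were read from the NCBI sequence of WBcel235, which is the ce11 assembly, and are written 5′ to 3′ on the strand of the gene, so that base 101 of 201 is the summit. Capitals mark every E-box (CANNTG) and every CCGCAC on either strand, the latter also written GTGCGG. In T13C5.6 they also mark a match to the tRNA B box word GTTCNANNC, which lies on the other strand. In M01F1.9 they mark the arms of an inverted repeat.
K12H4.5 (chrIII:8043866-8044066, plus strand): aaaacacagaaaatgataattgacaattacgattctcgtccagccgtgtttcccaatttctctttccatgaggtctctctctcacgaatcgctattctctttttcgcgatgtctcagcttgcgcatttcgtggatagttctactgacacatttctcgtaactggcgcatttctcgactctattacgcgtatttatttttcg
T13C5.6 (chrX:6207738-6207938, minus strand): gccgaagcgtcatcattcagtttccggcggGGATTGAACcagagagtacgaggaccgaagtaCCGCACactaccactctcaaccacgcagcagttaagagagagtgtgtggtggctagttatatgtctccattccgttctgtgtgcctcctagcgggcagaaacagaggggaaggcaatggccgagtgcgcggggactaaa
M01F1.9 (chrIII:3499922-3500122, minus strand): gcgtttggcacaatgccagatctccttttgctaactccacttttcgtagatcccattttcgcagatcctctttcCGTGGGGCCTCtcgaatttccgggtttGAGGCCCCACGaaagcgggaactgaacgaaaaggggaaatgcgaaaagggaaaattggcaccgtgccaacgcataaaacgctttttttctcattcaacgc
snx-13 (chrIV:17087523-17087723, minus strand): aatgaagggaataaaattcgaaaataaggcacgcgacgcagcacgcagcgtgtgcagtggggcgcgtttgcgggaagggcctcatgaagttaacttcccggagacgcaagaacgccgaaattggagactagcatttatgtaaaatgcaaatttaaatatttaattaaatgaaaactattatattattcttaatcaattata
idhg-1 (chrIII:4568665-4568865, plus strand): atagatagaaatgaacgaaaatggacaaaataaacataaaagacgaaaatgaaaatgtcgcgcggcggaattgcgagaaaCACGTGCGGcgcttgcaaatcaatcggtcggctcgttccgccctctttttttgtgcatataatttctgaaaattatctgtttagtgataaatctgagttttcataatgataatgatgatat
atx-2 (chrIII:10461214-10461414, plus strand): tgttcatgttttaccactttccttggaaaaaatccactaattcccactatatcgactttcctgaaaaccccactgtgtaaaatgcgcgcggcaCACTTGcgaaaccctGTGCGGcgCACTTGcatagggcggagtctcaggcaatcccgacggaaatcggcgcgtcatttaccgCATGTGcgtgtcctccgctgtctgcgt

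Among these windows, T13C5.6, idhg-1 and atx-2 hold CCGCAC, idhg-1 and atx-2 hold E-boxes, and K12H4.5, M01F1.9 and snx-13 hold none of the words searched.

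Peak signal values are the authors' own. The lists differ in scale, for which no definition is given, and comparisons were kept within a list. Because signal chose the genes, the values are a description. In the pooled list of 17654 peaks these 8 have the same coordinates and signal as in the IDR list, so each rank given for the IDR list is also the rank in the pooled list. The replicate 1 list holds 21250 peaks and the replicate 2 list 30000. The deposited q-value does not separate the 8 peaks, since each carries the highest −log10 q of its list, 3.00 in the IDR and pooled lists, 2.75 in replicate 1 and 2.79 in replicate 2. Most peaks have the set width of their list, 476 bp in the IDR and pooled lists, 504 bp in replicate 1 and 444 bp in replicate 2. Widths below these are given where they occur.

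K12H4.5, which encodes an uncharacterized protein, lies downstream of the strongest peak of the whole map. Its IDR signal was 587, against 388 for the second-ranked peak, and 7.24 times the median signal of the 407 IDR peaks. The peak was also first in both replicates, with a signal of 337 in replicate 1 and 251 in replicate 2, where the second-ranked peaks had 248 and 143. It spans chrIII:8043778-8044151, a width of 374 bp, and was 351 bp wide in replicate 1 and 313 bp wide in replicate 2. The summit at 8043966 lies between genes, 521 bp upstream of the K12H4.5 start. The replicate summits lie 15 bp to the gene side and 2 bp to the other side of it. K12H4.5 is a short gene on the plus strand, chrIII:8044487-8044780. On the other side, the nearest protein-coding gene is K12H4.6, another uncharacterized gene, on the minus strand with its start 1091 bp from the summit, just beyond the 1 kb within which a start was counted as divergent. No non-coding RNA gene lies within 1 kb, the nearest tRNA gene is 25439 bp away and the nearest snoRNA gene is 121574 bp away. No other peak of any of the 4 lists has its summit within 1 kb, and no like sequence was found elsewhere in the genome. The strongest peak thus has a single called summit within 1 kb in each list, with the replicate summits 17 bp apart. No E-box and no CCGCAC lies within 100 bp of its IDR summit. Whether the peak holds a single binding site was not tested.

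snx-13 encodes a sorting nexin with PX and PXA domains, a family that binds phosphoinositide lipids and acts in endosomal sorting. Its peak ranked 12 in the IDR list with a signal of 214, ranked 13 in replicate 1 with 134 and ranked 15 in replicate 2 with 81.2. It spans chrIV:17087556-17087760 and is 205 bp wide, the narrowest of the 8, and 163 bp wide in replicate 1. The summit at 17087623 lies 185 bp upstream of the snx-13 start on the minus strand, and the replicate summits lie 25 bp and 2 bp further upstream. Facing away on the plus strand is snr-1, which encodes the small nuclear ribonucleoprotein Sm D3 of the spliceosome and starts 426 bp from the summit. The starts of snx-13 and snr-1 are 611 bp apart, and the summit is the nearer to snx-13. The peak stands alone within 1 kb in all 4 lists.

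vps-51 encodes a subunit of the GARP and EARP complexes, which tether vesicles returning from endosomes. Its peak ranked 13 in the IDR list with a signal of 195, ranked 22 in replicate 1 with 107 and ranked 11 in replicate 2 with 86.0. The peak spans chrI:5807227-5807702 and its summit at 5807465 lies 174 bp upstream of the vps-51 start on the minus strand. The divergent gene is lin-35, the worm homolog of the retinoblastoma protein, which starts 244 bp from the summit on the plus strand. The starts of vps-51 and lin-35 are 418 bp apart, the shortest distance among the 5 divergent pairs. The peak covers nearly all of the space between them, but it has the set width, so nothing is read from that cover. The replicate 1 summit lies 3 bp from the IDR summit and the replicate 2 summit 40 bp from it, on the lin-35 side. The nearest start to the replicate 2 summit is that of lin-35, at 204 bp, so the nearest gene differs between the replicates. A further pooled summit lies 201 bp from the main one and 43 bp upstream of the lin-35 start, but it ranks only 11973 with a signal of 21.7, and neither replicate list has it.

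idhg-1 encodes a subunit of the mitochondrial NAD-dependent isocitrate dehydrogenase of the citric acid cycle. Its peak ranked 15 in the IDR list with a signal of 192, and its replicate ranks were the furthest apart of the 8, at 28 in replicate 1 with 103 and 9 in replicate 2 with 87.4. It spans chrIII:4568527-4569002 with the summit at 4568765. That is 32 bp upstream of the Ensembl start on the plus strand, but 248 bp upstream of the RefSeq start, so its distance depends on the annotation. The divergent gene on the minus strand is mlcd-1, which encodes malonyl-CoA decarboxylase, another mitochondrial enzyme, and starts 635 bp from the summit. The replicate summits lie 10 bp and 24 bp from the IDR summit, both towards mlcd-1.

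atx-2 encodes the worm ataxin-2, an RNA-associated protein that acts in translational control in the germ line and the early embryo. Its peak ranked 18 in the IDR list with a signal of 185, ranked 19 in replicate 1 with 115 and ranked 20 in replicate 2 with 70.2. It spans chrIII:10461200-10461411, a width of 212 bp, and was 177 bp wide in replicate 1. The summit at 10461314 lies 75 bp upstream of the start, with the replicate summits 7 bp and 0 bp from it. The divergent gene is ecps-1, which encodes a homolog of the proteasome-associated protein Ecm29 and starts 763 bp from the summit on the minus strand. A second IDR peak lies 527 bp from the main summit and 236 bp upstream of the ecps-1 start, at rank 325 with a signal of 64.8. That second peak was seen in replicate 2, at rank 50 with 53.7, while the replicate 1 list has no summit there. Replicate 2 also has summits at ranks 732 and 550 in its surroundings, so this promoter has 4 summits within 1 kb in replicate 2 and 1 in replicate 1. The pooled list has a further summit 200 bp from the main one on the gene side, at rank 6824 with a signal of 25.7.

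chaf-2 encodes a subunit of chromatin assembly factor 1 (CAF-1), which places histones H3 and H4 on newly replicated DNA. Its peak was the weakest of the 8, at rank 24 with a signal of 167, rank 37 in replicate 1 with 97.2 and rank 23 in replicate 2 with 67.3. The peak spans chrI:1822988-1823463 and its summit at 1823226 lies 221 bp upstream of the chaf-2 start on the plus strand, with the replicate summits 1 bp and 10 bp from it. The divergent gene is Y71G12B.30, which encodes a serine/threonine protein phosphatase and starts 278 bp from the summit on the minus strand. The antisense RNA gene anr-42, which spans chrI:1822401-1823043 on the plus strand, overlaps Y71G12B.30 and ends 183 bp from the summit. The starts of chaf-2 and Y71G12B.30 are 499 bp apart. The peak covers most of that gap, but it has the set width, so nothing is read from that cover.

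T13C5.6 encodes a protein with a phosphatidic acid phosphatase type 2 and haloperoxidase domain, a class of lipid phosphatases. Its peak ranked 7 in the IDR list with a signal of 258, ranked 6 in replicate 1 with 178 and ranked 13 in replicate 2 with 83.7. It spans chrX:6207600-6208075 and the summit at 6207838 lies 151 bp upstream of the T13C5.6 start on the minus strand. This summit falls inside a non-coding RNA gene, C14F11.14, of 147 bp on the plus strand at chrX:6207835-6207981. The IDR summit is at base 4 of that gene, and the replicate summits are further in, at base 37 in replicate 1 and base 43 in replicate 2. The next protein-coding gene on that side, C14F11.7, encodes an EB domain protein, ends 322 bp from the summit and points the same way as T13C5.6, so there is no divergent protein-coding start within 1 kb. A second IDR peak lies 200 bp further upstream at rank 120 with a signal of 99.0, but the matching peaks ranked only 4931 in replicate 1 and 2682 in replicate 2. The second peak therefore rests on the pooled list rather than on a high rank in either replicate.

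Beneath the T13C5.6 peak, bases 66 to 74 of C14F11.14 read GTTCAATCC, a match to the B box word GTTCNANNC. The B box is the part of an internal promoter at which tRNA genes recruit RNA polymerase III. This word was searched after the sequence had been seen, and is the core of a form with 1 more base at each end that was tried first. Within 100 bp of the summit it occurred in 1 of the 8 windows, in 5.23% of the other 172 promoter peaks and in 94.5% of the 128 IDR peaks that lie near a tRNA gene. The longer form also occurred in 1 of the 8 windows, that of T13C5.6, and in 1.16% and 80.5% of those peaks. The nearest annotated tRNA gene is 12232 bp away, so the peak meets the distance rule. The window has 3 other loci of like sequence, each on chromosome X, with 84.1 to 84.6% identity. Each overlaps annotated non-coding RNA genes. The locus of ZK816.8 and ZK816.9 has an IDR peak at rank 291 with a signal of 68.4, which ranked 194 in replicate 1 and 1640 in replicate 2. The locus of T22B2.9 and T22B2.12 has a pooled peak at rank 2120 with a signal of 34.2. The locus named K02D3.5 has no peak in any of the 4 lists. Whether the T13C5.6 peak belongs to the protein-coding gene or to the non-coding RNA cannot be told apart from its position.

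M01F1.9 encodes a protein with an arrestin N-terminal domain. Its peak ranked 8 in the IDR list with a signal of 252, and 8 in each replicate, with 161 in replicate 1 and 90.5 in replicate 2. It spans chrIII:3499892-3500147, a width of 256 bp, and was 219 bp wide in replicate 1. The summit at 3500022 lies 965 bp upstream of the M01F1.9 start on the minus strand, close to the limit of the rule. It is not between genes but in an intron of M01F1.8, a gene of the same strand that encodes a protein with a von Willebrand factor type D domain and spans chrIII:3499370-3502549. The replicate summits lie 2 bp and 5 bp from the IDR summit. A further pooled summit lies 202 bp away at rank 4560, which ranked 459 in replicate 1 and has no peak in replicate 2. The nearest gene beyond M01F1.8 is rpl-16, a ribosomal protein gene 2819 bp from the summit. No non-coding RNA gene lies within 1 kb.

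The M01F1.9 window is also a dispersed repeat. Its longest inverted arms were 11 bp long with 16 bp between them, centred close to the summit, against a median arm of 8 bp in the other promoter peaks, of which 5 had arms at least as long. With at least 80% identity over at least 100 bp, 42 other loci on 6 chromosomes matched the window, and their best identities ran from 80.4 to 89.9%. Of those loci, 16 held a pooled summit and 6 an IDR summit within 100 bp. The strongest of the 6 is on chromosome IV at rank 66 with a signal of 129.6, less than the 252 at M01F1.9, and none of the 6 is near a tRNA or snoRNA gene. Another locus of like sequence was found for T13C5.6 and M01F1.9, 2 of the 8, and for 11% of the other promoter peaks. The IDR peaks of those 6 loci are themselves among the other promoter peaks. So is the peak at rank 291 in the T13C5.6 copy. This background is therefore not independent of the 2 genes. How reads that match several loci were placed is not stated, and its part in these signals was not tested.

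**Figure D1:**
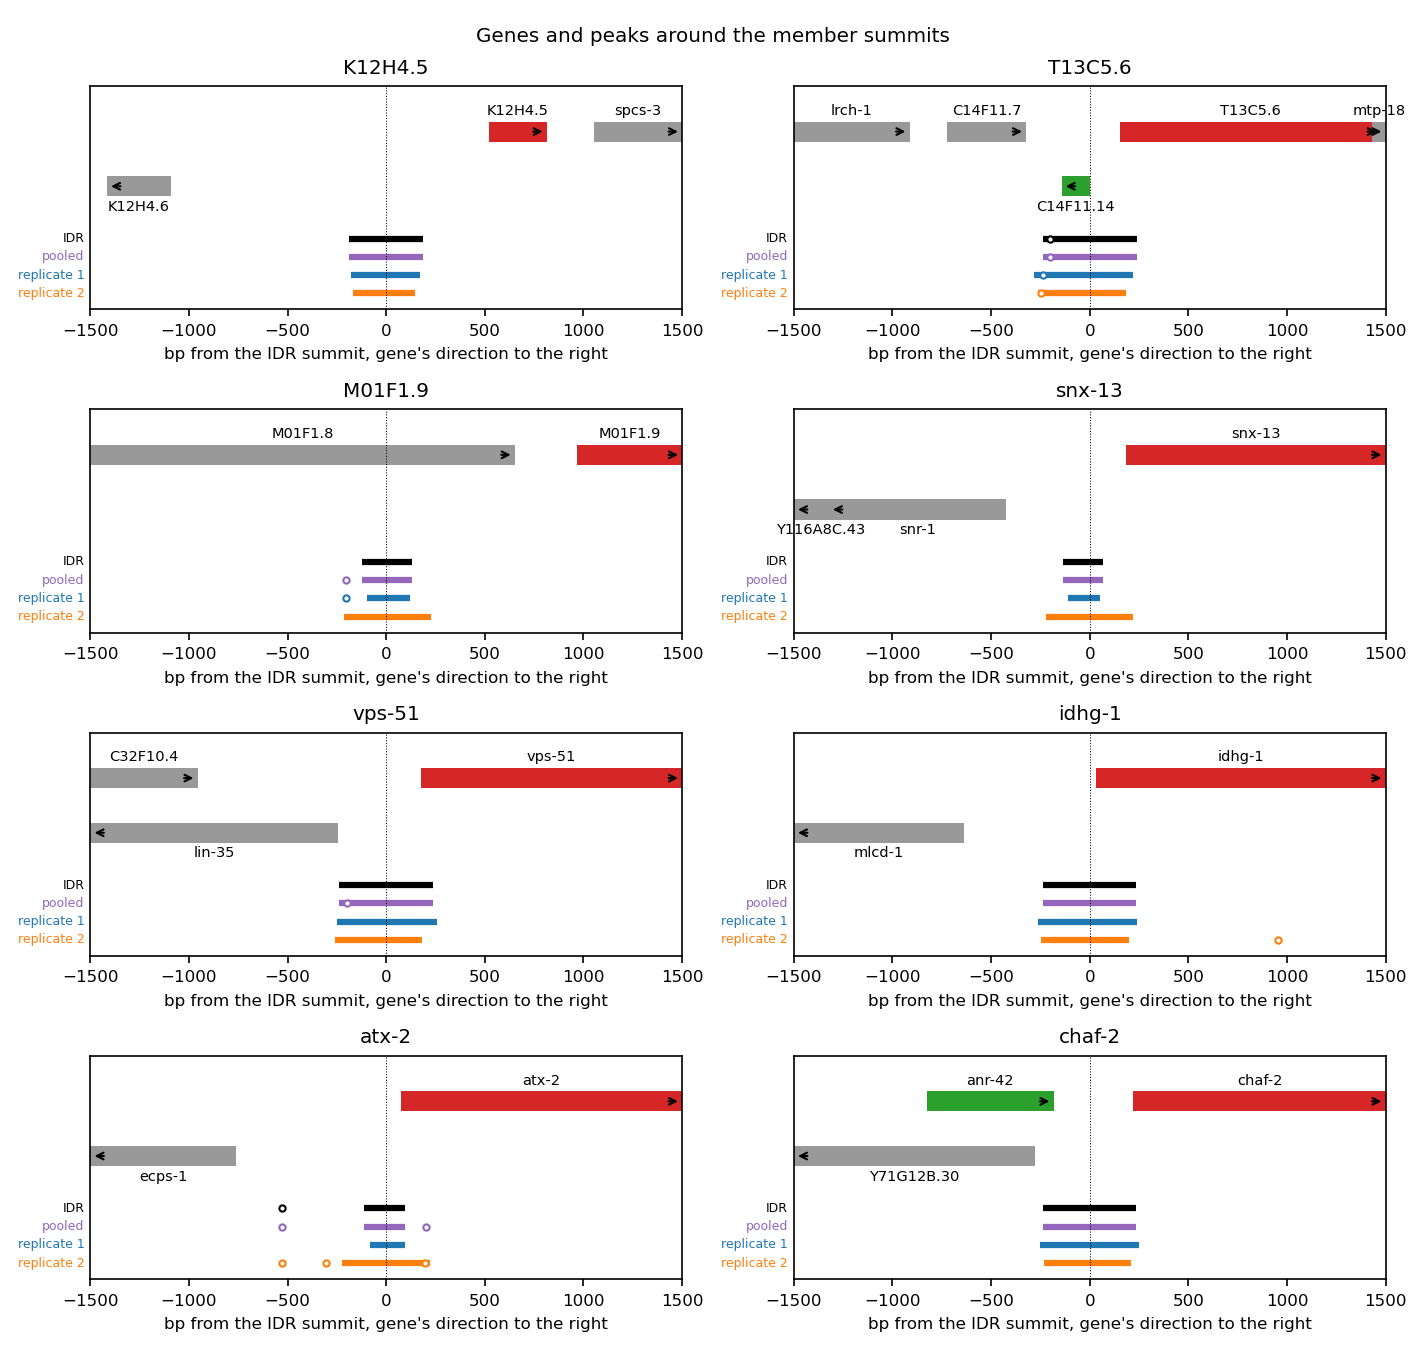
Genes and peaks around each of the 8 IDR summits, with distance from the summit in bp on the horizontal axis and the listed gene pointing right. Red boxes are the listed genes, grey boxes other protein-coding genes and green boxes non-coding RNA genes, those drawn above pointing right and those below pointing left; bars are the matching peaks in the 4 lists and open circles the summits of further peaks within 1 kb. In 5 panels a gene on the other strand starts within 1 kb on the far side, and a non-coding gene lies under the summit at T13C5.6.

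All 8 peaks overlapped one of the 407 strongest peaks of both replicates, as did 59.9% of the other promoter peaks and 100% of the 17 other peaks among the 25 strongest. The share of the 8 is read as no result, because the pooled signal that chose them was made from the same replicates. All 8 also overlapped one of the 100 strongest of both. With only the 25 strongest of each replicate, 6 did, since idhg-1 at rank 28 and chaf-2 at rank 37 fell outside in replicate 1. The median rank of the 8 was 16 in replicate 1 and 12 in replicate 2. idhg-1, chaf-2 and vps-51 stood higher in replicate 2, by 19, 14 and 11 places, while T13C5.6 stood 7 places higher in replicate 1. The other 4 differed by at most 2 places. The replicate summits were 6 to 43 bp apart with a median of 12.5 bp. The 17 other peaks among the 25 strongest had summits 1 to 57 bp apart with a median of 19 bp, and the 171 other promoter peaks with a peak in both replicates, which are mostly weaker, had a median of 35 bp. The distance thus moved with signal, and nothing particular to the 8 is read from it.

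**Figure D2:**
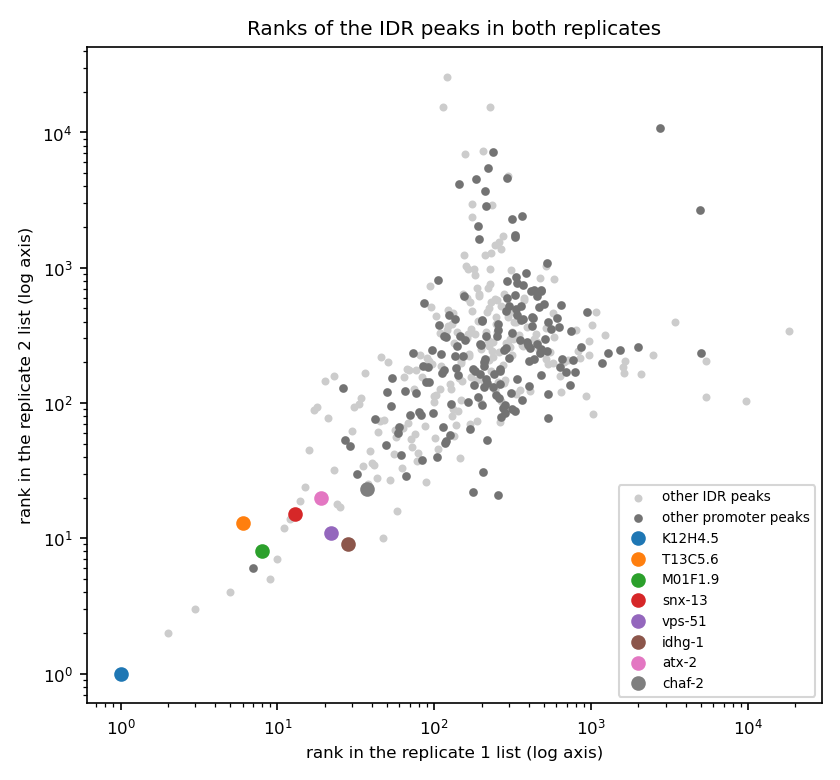
Rank of each IDR peak in the replicate 1 list (horizontal, log axis) against its rank in the replicate 2 list (vertical, log axis), for peaks with an overlapping peak in both. Coloured points are the 8 listed genes, dark grey points other promoter peaks and light grey points all other IDR peaks; the 8 lie at ranks 1 to 37 in replicate 1 and 1 to 23 in replicate 2.

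The signal fell steeply over the first ranks and then slowly, so the limit of 25 peaks does not fall at a break. The last listed peak, chaf-2 at rank 24, had a signal of 167, the peaks at ranks 25 and 26 had 167 and 165, and the next promoter peak, at C16C10.4, had 163 at rank 27. The following promoter peaks were at Y50D4C.5 with 161 at rank 29, Y41D4A.6 with 156 at rank 33, K05C4.2 with 147 at rank 39 and B0495.9 with 144 at rank 42. Below the 25 strongest peaks, these 5 genes are the ones most like the listed genes by rank of the same signal. ears-2, the glutamyl-tRNA synthetase gene whose peak met the rule but is not listed, had an IDR signal of 281, a rank of 7 in replicate 1 with 173 and of 6 in replicate 2 with 107. Of the 17 other peaks among the 25 strongest, 11 lie within 100 bp of a snoRNA gene and 5 within 100 bp of a tRNA gene, and the remaining one is that of ears-2.

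**Figure D3:**
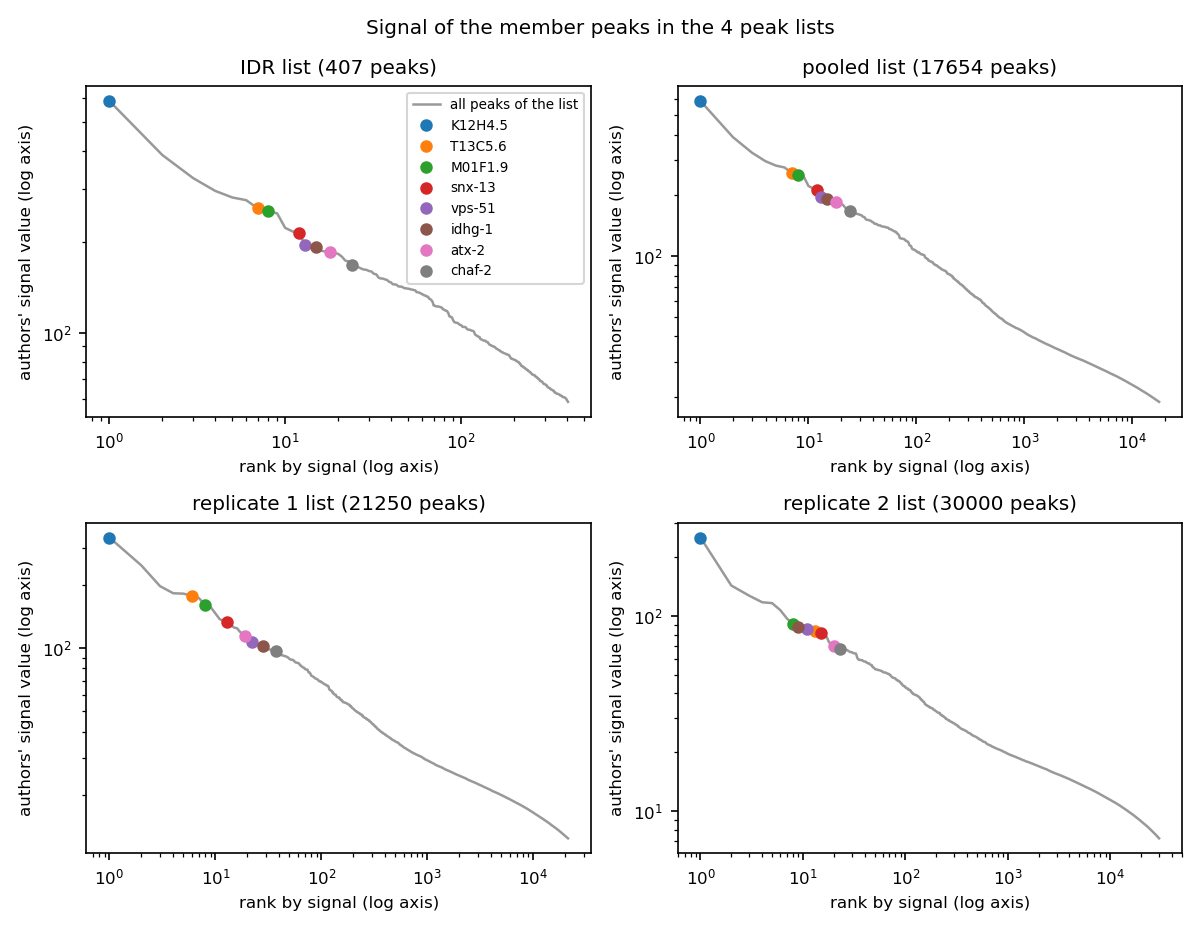
The authors' signal value of each peak (vertical, log axis) against its rank in the list (horizontal, log axis), in the IDR, pooled, replicate 1 and replicate 2 lists. The grey line is all peaks of a list and the coloured points are the 8 listed genes; K12H4.5 is first in every list, and the other 7 lie between 167 and 258 in the IDR list.

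Peak width differed among the 8. K12H4.5, M01F1.9, snx-13 and atx-2 had IDR peaks of 205 to 374 bp, while T13C5.6, vps-51, idhg-1 and chaf-2 had the set width of 476 bp. Width moved with rank. Narrower peaks made up 70.6% of the 17 other peaks among the 25 strongest, whose median width was 279 bp against 425 bp for the 8, and 1.16% of the other promoter peaks. Among all 407 IDR peaks 18 were narrower, of which 2 were below the 25 strongest. The count of 4 among the 8 therefore cannot be told apart from their signal. Of the 4 narrow peaks, only K12H4.5 was also below the set width in replicate 2.

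The rule allowed only summits within 1 kb upstream of the nearest start, so closeness to the start was partly fixed. Within that limit the median distance was 179.5 bp, with 6 of the 8 within 250 bp. The 172 other promoter peaks had a median of 205 bp, and 106 of them were within 250 bp. A divergent protein-coding start within 1 kb was present for 5 of the 8, atx-2, chaf-2, idhg-1, snx-13 and vps-51, and for 45.3% of the other promoter peaks. In all 5 the IDR summit was nearer to the listed gene, which the rule fixed by taking the nearest start. The replicate 2 summit of the vps-51 peak was nearer to lin-35. Besides lin-35, a regulator of the cell cycle, the divergent partners include snr-1 of the splicing machinery and ecps-1 of the proteasome. A non-coding gene lay under the summit in 1 of the 8, T13C5.6, and in 4.07% of the other promoter peaks. A second pooled summit within 1 kb was present for T13C5.6, M01F1.9, vps-51 and atx-2, 4 of the 8, and for 51.7% of the other promoter peaks. In each of these 4 a further pooled summit lay 200 to 202 bp from the main one. Whether summits at this like spacing are separate sites was not tested. The other promoter peaks include the second T13C5.6 peak at rank 120 and the ecps-1 peak at rank 325. Both lie within 1 kb of a listed summit, so this background is not fully independent of the 8. No test of these shares was made, since the genes were selected on signal and number only 8.

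An E-box lay within 100 bp of the summit in 3 of the 8 windows, those of vps-51, idhg-1 and atx-2, compared with 48.3% of the other promoter peaks. In atx-2 there were 3 E-boxes, CACTTG starting 7 bp before and again 16 bp after the summit, and CATGTG starting 74 bp after it. In idhg-1 the single E-box is the palindrome CACGTG, starting 20 bp before the summit. The vps-51 window has an E-box starting 80 bp before and another starting 72 bp after the summit, both at its edges. The word CCGCAC lay within 100 bp in 3 of the 8 windows, T13C5.6, idhg-1 and atx-2, and in 20.9% of the other promoter peaks. It was chosen as the leading word at peaks away from small RNA genes in earlier results of these data. Its presence here is therefore a description and no support for the word. In idhg-1 it shares bases with the E-box, and in atx-2 it lies between a pair of CACTTG sites. chaf-2, K12H4.5, M01F1.9 and snx-13 had neither word.

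**Figure D4:**
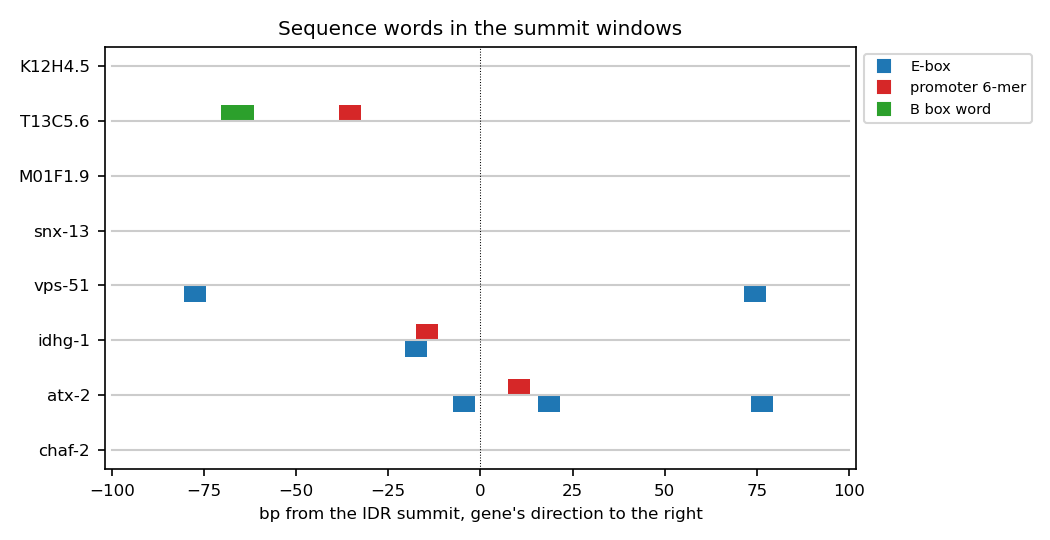
Positions of the words searched within 100 bp of the 8 IDR summits, with distance from the summit in bp on the horizontal axis and the direction of the gene to the right. Blue boxes are E-boxes, red boxes are CCGCAC on either strand (called promoter 6-mer in the key) and the green box is the B box word; the boxes of idhg-1 and most of those of atx-2 lie within 25 bp of the summit, and 4 windows have no box.

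Longer words were then compared between the windows, after the sequences had been seen. Of all words of 9 bases, 27 were shared by 2 windows and none by more. Those with at least 6 G or C bases come from 3 pairs of genes. idhg-1 and atx-2 share GCGCCGCAC, which contains CCGCAC and was found in 5 of the 399 other IDR windows. snx-13 and chaf-2 share CGCGCCCCA and GCGCCCCAC, each found in 2 of the 399. In snx-13 these words overlap as a single stretch. M01F1.9 and chaf-2 share CCCCACGGA and CCGTGGGGC, each found in 0 of the 399. In M01F1.9 these words also form a single stretch, read on opposite strands, which runs into a marked arm of its inverted repeat. No word of that length is common to all 8 windows. The named words were picked because 2 of the windows share them, so their rarity elsewhere is a description and no support for them. How many such words other sets of 8 windows share was not counted. The G and C content of the windows ranged from 36.3% in vps-51 and idhg-1 to 55.2% in T13C5.6, with 41.3% in K12H4.5, and the other promoter peaks had a median of 39.3%.

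The listed genes with named pathways were set beside their partners. Over all 19973 protein-coding genes, 1.57% had an IDR summit and 24.4% a pooled summit in the upstream 1 kb. Each list holds 1 of the 8 genes, so its IDR count starts at 1. Of the 5 GARP and EARP genes, vps-51 alone had an IDR summit, and vps-50, the EARP-specific subunit, had a pooled summit at rank 14124. Of 8 sorting nexin genes, snx-13 alone had an IDR summit and 5 had a pooled summit, with snx-3 the next at rank 963. Of 7 genes of chromatin assembly and replication, chaf-2 alone had an IDR summit, while the pooled list added unc-85 at rank 548, lin-53 at rank 765 and pcn-1 at rank 6953. unc-85 encodes an ASF1 histone chaperone and lin-53 a histone-binding protein shared by several chromatin complexes. chaf-1 and rba-1, which encode other CAF-1 subunits, had no pooled summit in the upstream 1 kb. Of 6 genes of ataxin-2 and other RNA-binding proteins, atx-2 alone had an IDR summit and 5 had a pooled summit. The citric acid cycle list, with 21 genes by far the longest of the 5, was the only one with further IDR summits. Of its genes, idhg-1, dlst-1 and dld-1 had one and 14 had a pooled summit. dlst-1 and dld-1 encode subunits of the 2-oxoglutarate dehydrogenase complex. Their peaks ranked 297 and 399 with signals of 67.5 and 60.0, where the lowest IDR signal was 58.9. idha-1, which encodes the partner subunit of the same isocitrate dehydrogenase, had only a weak pooled summit at rank 13251 with a signal of 21.0. No partner gene in these 5 lists had a peak ranked above 297.

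The tagged factor's own gene gave no strong peak. hlh-15 had no IDR summit in the gene or its upstream 1 kb, and its pooled summit ranked 15519. hlh-2, the gene of the usual bHLH partner, had no summit in any of the 4 lists. unc-119, which is mutant in the strain, had no IDR summit and a best pooled rank of 3457. The replicates differed there, with 1 summit at rank 15771 in replicate 1 and 5 summits with a best rank of 1434 in replicate 2. These peak lists hold no expression values, so the labelled stage and tissue could not be checked against marker genes.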

How the data were processed

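The 4 ce11 peak lists were used, 1 for each of 2 replicates, 1 pooled and 1 IDR list. Per the deposited notes, the replicate and pooled lists hold peaks and background as input for IDR and were made with a control library, which is not analysed here. The signal value, whose scale is not stated, and the −log10 q were deposited by the authors. Aligner and peak caller were not given in the sources used here. Fixed widths mean that the summit, not the edge, gives position.

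Summits were set against WBcel235 (Ensembl release 115 annotation, NCBI sequence). A peak belonged to the gene with the nearest protein-coding start. Peaks of 2 lists matched at 1 bp of overlap, the nearest summit being taken. Like sequence was searched with blastn 2.17.0 in windows of 301 bp (e-value at most 1e-05, at least 80% identity over at least 100 bp, loci within 500 bp merged). The scripts (Python 3.11.15, pandas 2.3.3) were tested on simulated data. The listed genes, gene lists and words were chosen with earlier results of these data known, so no test was made of them and shares stand beside the background. Sequences of vps-51 and chaf-2 are not shown. Named were the 8 genes, their neighbours, non-coding genes within 1 kb, ears-2, the next 5 promoter peaks, hlh-15, hlh-2, unc-119 and list genes with a peak; the other loci of like sequence were named after their values were seen. Depth is unknown. Per the labels the replicates are biological. Alternatives covered overlap, distance, annotation, window size and each replicate alone.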

Additional observations from a re-analysis of the deposited data

How the results depend on the processing

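The 9 results were set against 33 alternatives, 2 of which were added after the data had been seen. Counts were compared within 1.5 times and values within the spread between the replicates. By that measure 21 alternatives stayed the same and 12 moved, among them all those of the median distance to the start. The count of peaks shared by both replicates was 6 with reciprocal overlap of at least 50% and 8 with every other planned rule. The median rank was 15.25 over both replicates, and ran from 12 without replicate 1 to 16 without replicate 2. The median distance to the start was 179.5 bp, 197 bp and 202 bp with 1 replicate's summits each, 243.5 bp from the start codon, 196.5 bp from the peak centre and 203 bp with the RefSeq annotation. Divergent genes numbered 5 within 1 kb, 3 within 500 bp and 6 within 2 kb. Members with a non-coding gene rose from 1 to 2 at 250, 500 and 1000 bp, the added gene being anr-42 near chaf-2. E-boxes were present in 3 windows, 2 at 50 bp to each side and 5 at 200 bp, while CCGCAC was present in 3 at every width and with each replicate's summits. A second peak was present for 4 genes with the pooled peaks, 3 without replicate 1 and 2 without replicate 2. A rank by the score or q column was not run, because neither varies over the 8 peaks. No paired analysis was possible because there is only 1 group. Unknown depth, 2 replicates, a tagged transgene and whole embryos limit all values, and no untagged sample shows what these promoters give without the factor.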
